A study of Oryza sativa Japonica Group with 238 samples.

Results

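Cytosolic ribosomal protein genes were followed across the rice root libraries. A gene was a member when its description in the deposited TPM table named a 40S ribosomal protein, a 60S ribosomal protein or a 60S acidic ribosomal protein, and the gene of the tagged ribosomal protein L18 (OS03G0341100) was left out. The rule gave 160 members among 28248 genes, of which 64 belonged to the small subunit, 90 to the large subunit and 6 to the acidic stalk of the large subunit. The members fell into 67 protein families by description, and 49 families had more than 1 gene copy, with 142 members in all. The descriptions are mostly statements of resemblance. The member OS03G0725000, is described as a mitochondrial L6 protein although it met the rule, and its values are given under the name of its description.

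A cytosolic ribosome holds a single copy of most ribosomal proteins, assembled on ribosomal RNA in the nucleolus, and plants encode nearly every such protein by a small family of near-identical gene copies. The small subunit decodes the mRNA, the large subunit forms the peptide bond and carries the exit tunnel, and the acidic stalk of P0, P1, P2 and the plant-specific P3 recruits the elongation factors. Transcripts of these genes are abundant in growing and dividing root cells, and in Arabidopsis under low oxygen they are known to be held back from polysomes.

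The plants were Oryza sativa cv. Nipponbare, and every RNA library came from a transgenic line carrying a FLAG- and GFP-tagged OsRPL18, named after the promoter that drives the tag. RNA was measured in 187 libraries in 62 groups. TRAP RNA (157 libraries) is poly(A) RNA pulled down with tagged ribosomes, and TOTAL RNA (30 libraries) is poly(A) RNA of whole roots of the 35S line. The 51 other libraries are ATAC-seq libraries of 17 groups, which count transposase cuts upstream of genes. The greenhouse groups used here were control I, control II, water deficit, waterlogging and submergence, all from roots of plants aged 26 days, and recovery from each stress at 27 days. Field roots were 49 days old and plate roots 7 days old, so age and setting cannot be told apart in those groups. A greenhouse replicate is a pot of 21 plants of a line, and nothing states what a field or plate replicate is. The 35S promoter is active in most cells, RSS1 in dividing cells, QHB in the quiescent centre, SCR in the endodermis and its initials, and LSI1 in exodermis and endodermis; what the CMZ and CASP promoters mark is not stated in the labels. Submergence was set against control II and the other stresses against control I. That reference is an inference, as no label links control II with submergence. No member was called between the 2 controls by limma at an adjusted p under 0.05, in TOTAL (background 0% of genes; 9 members at an unadjusted p under 0.05) or in 35S TRAP (background 0.019%; 4 members).

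Facts of the whole series touch the results as follows. The values are TPM, a share of each library per transcript length, so a fall of a member is a fall relative to the other transcripts. In bulk roots, fewer cells that use a gene and less of its RNA per cell cannot be told apart. Each of the 3 TRAP lines CMZ, SCR and CASP held the tagged RPL18 transcript at 263.3 to 1898 TPM in control I, against 816.4 to 1095 TPM in TOTAL and 16040 to 113600 TPM in 35S TRAP. Genes of chlorophyll-binding and photosystem proteins, which mark green tissue, summed to more than 500 TPM in 19 RNA libraries. Under deficit the transcript of the dehydrin RAB21 alone reached 111900 to 114900 TPM in TOTAL and 116900 to 121800 TPM in 35S TRAP. No pair of RNA libraries held identical values.

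Ribosomal protein transcripts were among the most abundant of the root. The median member averaged 180.5 TPM over all RNA libraries, against 10.25 TPM for the median gene. A mean above 100 TPM was seen for 120 members, a mean under 20 TPM for 9 and a mean under 1 TPM for 0. Together the members took 1.308% to 5.551% of a library's TPM, with a median of 3.185%. The highest mean, 689.2 TPM, belonged to an L10 gene (OS05G0169100), whose protein lies close to the peptidyl transferase centre and is needed for the subunits to join. It was followed by an S8 gene (OS04G0349500, 538.4 TPM), an S4 gene (OS02G0105900, 511.4 TPM), the main P0 gene (OS08G0130500, 505.5 TPM) and the P1 gene (OS08G0116500, 503.1 TPM). The lowest were copies within families of more than 1 gene, namely an L35 gene (OS06G0732000, 3.11 TPM), an L15 gene (OS06G0308200, 3.26 TPM) and an S18 gene (OS07G0174200, 5.44 TPM).

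The summed level of the 160 members in TOTAL RNA was lowest under submergence, and the next lowest means were those of deficit and of recovery from waterlogging, whose libraries overlapped. In control I the sum was 45231 ± 3412 TPM (SD, n = 3), in control II 44357 ± 7309 TPM, in waterlogging 43010 ± 2554 TPM and on plates 46482 ± 1190 TPM. Under deficit it was 32222 ± 2344 TPM, in recovery from waterlogging 34299 ± 2763 TPM, and under submergence 18619 ± 226 TPM. All 3 submerged libraries (18449 to 18875 TPM) lay below the lowest control II library (35955 TPM). The sum was 40574 ± 4526 TPM in recovery from deficit and 40039 ± 2210 TPM in recovery from submergence. In 35S TRAP the sums were lower and closer together, with 22463 ± 1375 TPM in control I, 22862 ± 2951 TPM under deficit, 19073 ± 3142 TPM in control II and 16371 ± 2703 TPM under submergence. In RSS1 TRAP the sum stood at 30821 ± 5763 TPM in control II, 14121 ± 1767 TPM under submergence and 41015 ± 6763 TPM in recovery.

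**Figure D1:**
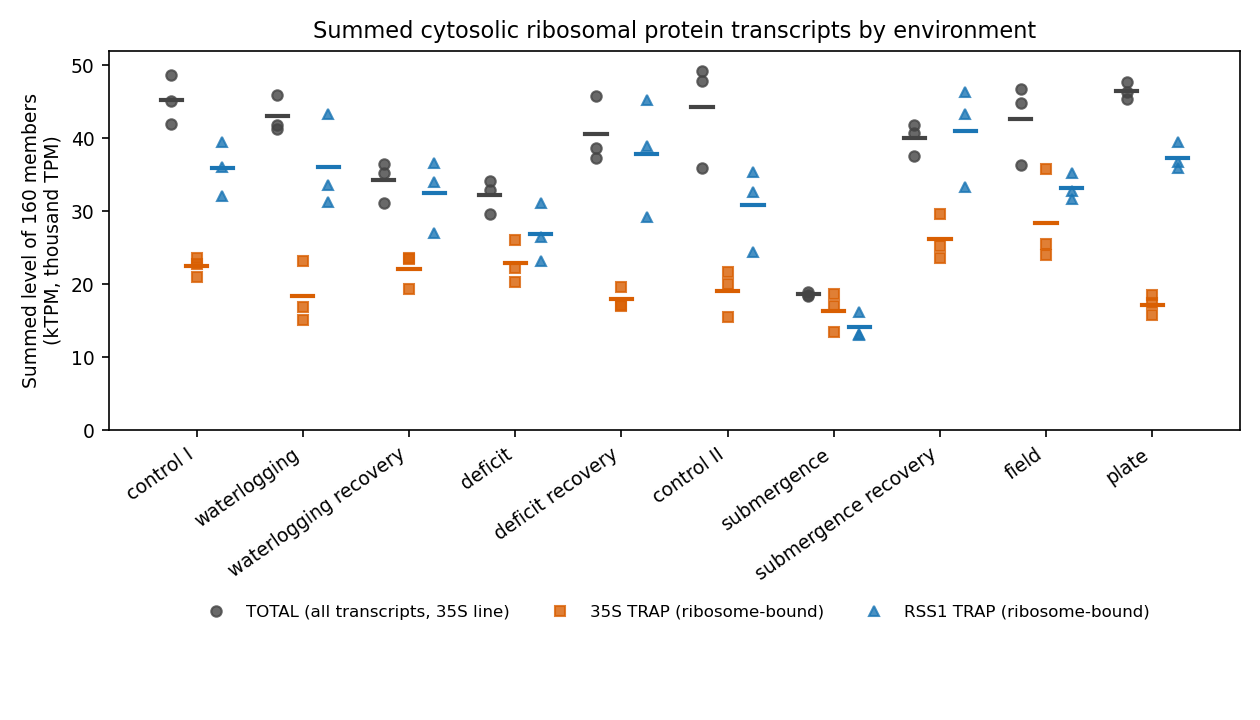
Summed TPM of the 160 members (vertical axis, kTPM) in each environment for TOTAL RNA, 35S TRAP and RSS1 TRAP; points are libraries and bars are means. The 3 submerged TOTAL libraries (18449 to 18875 TPM) sit far below control II (35955 to 49250 TPM), while 35S TRAP overlaps between the 2 environments.

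Most members fell under submergence in TOTAL RNA. By limma on log2(TPM + 1), at an adjusted p under 0.05 over all 26506 genes tested, 136 of 160 members fell and 8 rose, where 28.7% of all genes fell and 26.5% rose. A change of at least 2-fold was reached by 117 of these (background 16.4% of genes higher and 19.5% lower). The median member changed by -1.47 on the log2 scale and the median gene by 0.02. The libraries of the 2 groups did not overlap for 145 members, with 138 lower and 7 higher under submergence. Overlap was not counted over all genes, so these counts have no background. Markers of cell types differed as well: genes of histones and B-type cyclins, which mark proliferating cells, summed to 5912 to 6877 TPM in control II and 3470 to 3893 TPM under submergence, and 35 of 53 fell and 7 rose. Green tissue genes summed to 24.8 to 49.5 TPM in control II and 169.9 to 262.5 TPM under submergence. The part of either in the result was not tested.

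Among the small subunit genes 56 of 64 fell and 1 rose. The S10 gene OS01G0962600, whose protein sits in the head of the small subunit, stood at 122.3, 108.4 and 98.9 TPM in the control II libraries and at 14.58, 14.85 and 26.02 TPM under submergence. Every submerged library lay at a small part of every control value. The log2 change was -2.55 (SE 0.18, limma adjusted p 3.16e-11). Its family partner OS04G0430100 went from 406.9, 410.4 and 360.2 TPM to 125.2, 120.5 and 129.6 TPM, again without overlap. SA (OS07G0616600), a homolog of the laminin receptor that helps hold the mRNA exit side of the small subunit together, was at 152.9, 167.8 and 132.3 TPM in control II and at 30.28, 25.01 and 36.73 TPM under submergence (log2 change -2.27, SE 0.16, limma adjusted p 1.53e-11). An S9 gene (OS11G0602600) of high level followed, from 724.2, 663.7 and 519.4 TPM to 132.3, 146.9 and 118.3 TPM. The groups did not overlap for either gene. An S8 gene (OS02G0489400, log2 change -2.33) and an S4 gene (OS05G0368300, -2.13) completed the largest small subunit falls.

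Among the large subunit genes 74 of 90 fell and 7 rose. The largest fall of any member was that of L40 (OS09G0568400), which is made as a fusion to ubiquitin and cleaved after translation. It stood at 137.7, 114.2 and 88.08 TPM in control II and at 18.73, 14.75 and 15.51 TPM under submergence, with no overlap (log2 change -2.71, SE 0.26, limma adjusted p 3.6e-09). L5 and L11 bind 5S ribosomal RNA and form the central protuberance with it. L5 (OS01G0896700) fell by 1.70 on the log2 scale, and 3 of the 4 L11 genes fell, OS06G0550000 by 2.26 and OS05G0207300 and OS01G0205500 by 1.80 and 1.79. L3 (OS11G0168200), which reaches into the peptidyl transferase centre, fell by 1.84. The abundant L10 gene OS05G0169100 fell less, from 1189, 1032 and 931.9 TPM to 570.5, 559.2 and 441.2 TPM, with a log2 change of -1.01 (SE 0.16, limma adjusted p 1.2e-05) and no overlap.

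The stalk genes moved as a set of 6 falls. P0 (OS08G0130500), the base of the stalk, stood at 723.5, 607.3 and 485.5 TPM in control II and at 144.2, 150.2 and 149.0 TPM under submergence. P3 (OS06G0701400) went from 386.9, 314.6 and 288.4 TPM to 94.17, 82.01 and 116.6 TPM. In both genes the submerged libraries lay together, far below the controls, and the log2 changes were -2.01 (SE 0.19) and -1.75 (SE 0.20). P2 (OS01G0231700) fell by 1.51 and P1 (OS08G0116500) by 1.18 on the same scale, and the 2 minor P0 genes OS11G0135400 and OS12G0133050 had log2 changes of -1.501 and -1.243 (limma adjusted p from 2.82e-09 to 1.82e-05 over the 6).

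Genes for the rest of the translation machinery are the nearest comparison. Elongation factor genes gave 11 falls and 0 rises among 13 tested in TOTAL RNA, with a median log2 change of -1.25. Ribosome assembly genes gave 13 falls and 4 rises among 26 (median -0.48), and ribosomal proteins of mitochondria and plastids 15 falls and 8 rises among 58 (median -0.21). Another 114 genes described as ribosomal proteins without a named cytosolic or organellar subunit gave 66 falls and 11 rises.

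**Figure D2:**
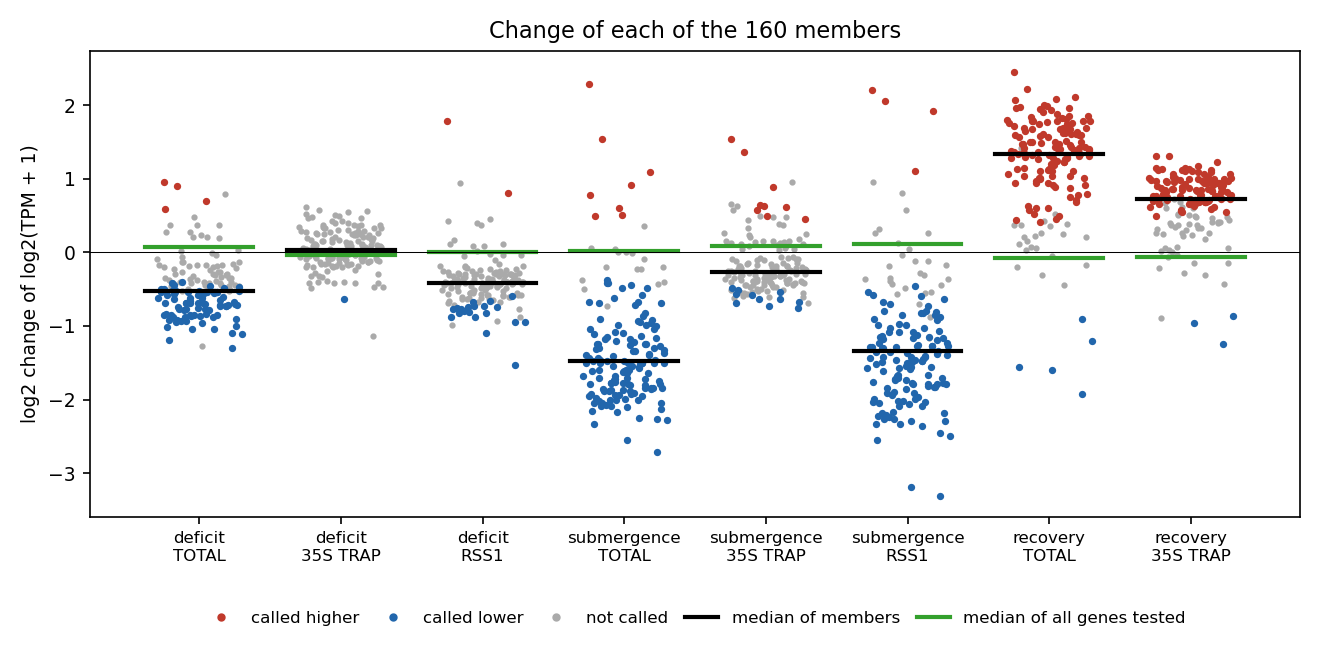
Change of log2(TPM + 1) of each of the 160 members under deficit and submergence in TOTAL, 35S TRAP and RSS1 TRAP and in recovery from submergence, compared with submergence, in TOTAL and 35S TRAP; points are members, red where called higher and blue where called lower, and black and green bars mark the medians of the members and of all genes tested. Under submergence the medians lie at -1.47 in TOTAL, -0.27 in 35S TRAP and -1.34 in RSS1 TRAP.

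A few copies went the other way under submergence. The rare L35 gene OS06G0732000 was at 1.645, 0.5206 and 1.969 TPM in control II and at 12.86, 7.848 and 10.38 TPM in submerged roots (log2 change 2.29, SE 0.36, limma adjusted p 8.42e-06). An L7 gene, OS08G0542300, went from 8.119, 7.096 and 4.894 TPM to 26.62, 19.69 and 17.78 TPM (1.54, SE 0.26). An S13 gene, OS02G0677800, went from 8.792, 6.647 and 6.459 TPM to 17.87, 14.97 and 17.15 TPM (1.10, SE 0.24). In all 3 genes the groups did not overlap, and all 3 are minor copies of their families. The S13 gene of high level, OS08G0117300, went from 448.5, 398.8 and 282.9 TPM to 115.2, 121.3 and 121.6 TPM.

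Copies of the L18a family moved in opposite directions under submergence. OS05G0564800 was at 65.94, 61.96 and 66.8 TPM in control II and at 113.6, 127.0 and 130.7 TPM under submergence (log2 change 0.92, SE 0.17, limma adjusted p 8.08e-05). OS05G0565000 went from 184.1, 184.5 and 154.3 TPM to 45.87, 40.23 and 54.04 TPM. The order of the 2 copies was therefore exchanged, with the submerged libraries of the first above its controls and those of the second below. The share of OS05G0564800 in the summed level of its family was 16.0% in control II and 47.0% under submergence. A further L18a gene, OS01G0667100, and an L7a gene, OS01G0924800, rose by 0.79 and 0.61, but their libraries overlapped between groups; the call of OS01G0667100 was lost without control II replicate 1 or 2 or submergence replicate 1 or 3, and that of OS01G0924800 without control II replicate 2 or 3 or submergence replicate 2 or 3.

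The L35 family held an abundant copy that did not fall, and the L11 family a copy of lower level. The L35 gene OS02G0503400, whose protein lies at the exit tunnel, was at 500.9, 389.7 and 337.5 TPM in control II and at 567.0, 570.5 and 587.3 TPM under submergence (log2 change 0.51, SE 0.18, limma adjusted p 0.0213), and this call was lost without control II replicate 2 or 3. The other abundant L35 gene, OS04G0376000, went from 380.6, 338.8 and 261.2 TPM to 156.1, 163.4 and 187.8 TPM. The groups overlapped for neither gene, and the share of OS02G0503400 in its family went from 55.5% to 76.2%. The L11 gene OS02G0235600 was at 76.66, 72.91 and 79.16 TPM in control II and at 87.21, 103.4 and 104.9 TPM under submergence, a log2 change of 0.36 that did not pass (limma adjusted p 0.112). Its share of the L11 family went from 12.8% to 41.3%. Levels of single copies are uncertain, because counting can divide the reads of close copies in different ways and no source used here says how it did.

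**Figure D3:**
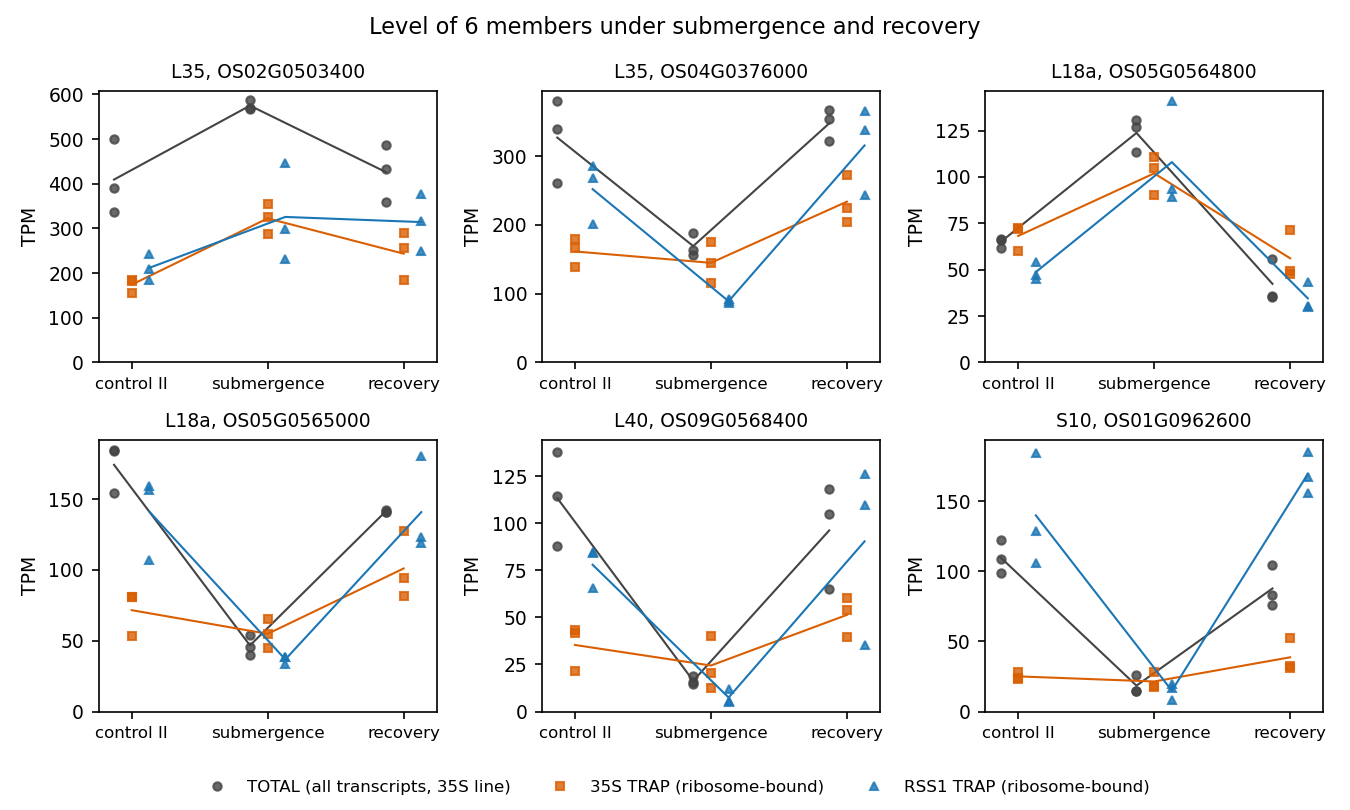
TPM (linear axes from 0, one per gene) of 6 members in control II, submergence and submergence recovery for TOTAL, 35S TRAP and RSS1 TRAP libraries; points are libraries and lines join the means. The L18a genes OS05G0564800 and OS05G0565000 exchange their order in submerged TOTAL RNA.

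In ribosome-bound RNA of the RSS1 line, 128 members fell and 4 rose under submergence by limma, where 22% of all genes fell and 23.6% rose, and the median member changed by -1.34 (median gene 0.11). L40 went from 83.93, 84.56 and 65.34 TPM (OS09G0568400) to 11.89, 5.439 and 5.06 TPM, and S10 (OS01G0962600) from 128.9, 184.4 and 106.1 TPM to 16.99, 8.295 and 19.43 TPM. Neither gene overlapped between groups, and the log2 changes were -3.30 (SE 0.33) and -3.19 (SE 0.30). The S13 gene OS02G0677800 was at 5.282, 3.538 and 5.315 TPM in control II and at 26.08, 23.08 and 25.81 TPM under submergence, a log2 change of 2.20 (SE 0.30, limma adjusted p 9.51e-07). The other rises were those of L35 OS06G0732000 (2.05), L7 OS08G0542300 (1.92, overlapping groups, lost without submergence replicate 1 or 3) and L18a OS05G0564800 (1.11). The members that fell in both sets of libraries numbered 127, out of 136 in TOTAL and 128 in RSS1 TRAP, and those that rose in both numbered 4, out of 8 and 4. The proliferating cell markers summed to 7100 TPM in RSS1 control II on average, and to 3302 to 3873 TPM under submergence. The green tissue markers summed to 22.3 to 77.1 TPM in RSS1 control II and to 189.2 to 466.5 TPM under submergence. The tagged RPL18 transcript in RSS1 TRAP went from 13740 to 17210 TPM in control II to 1456 to 4483 TPM under submergence. The parts of the markers and of this transcript in the result were not tested.

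In ribosome-bound RNA of the 35S line the change was small. By limma 11 members fell and 9 rose (background 16.1% and 17.8% of 26315 genes), with a median member change of -0.27 and a median gene change of 0.08. With genes above 20000 TPM removed and the rest rescaled the split was 6 higher and 30 lower, and with libraries centred on their median it was 6 and 15. The count of 20 became 8 without control II replicate 1, 10 without control II replicate 2, 9 without submergence replicate 2, 11 without submergence replicate 3 and 30 without control II replicate 3. The proliferating markers summed to 3046 TPM in control II and 2972 TPM under submergence, and the green markers reached 245.1 to 471.0 TPM under submergence.

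Members with a large fall in TOTAL were followed in 35S TRAP. S10 (OS01G0962600) stood at 27.95, 23.99 and 23.27 TPM in 35S TRAP control II and at 28.32, 18.47 and 17.55 TPM under submergence, so the groups overlapped. L40 (OS09G0568400) went from 43.21, 41.53 and 21.34 TPM to 40.28, 20.57 and 12.5 TPM, overlapping again (log2 change -0.60, limma adjusted p 0.19). S9 (OS11G0602600) gave the largest fall, from 267.9, 265.3 and 210.9 TPM to 166.4, 145.1 and 126.4 TPM, with no overlap and a log2 change of -0.76 (SE 0.20, limma adjusted p 0.00497). Of the rises, that of L7 OS08G0542300 was largest, from 2.159, 3.119 and 4.965 TPM to 13.05, 9.854 and 11.38 TPM (log2 change 1.54, SE 0.36). L35 OS02G0503400 went from 182.1, 183.8 and 156.2 TPM to 354.3, 325.0 and 288.2 TPM (0.89, SE 0.18, limma adjusted p 0.000586), and L11 OS02G0235600 from 34.47, 34.93 and 38.12 TPM to 59.63, 60.67 and 49.71 TPM (0.64, SE 0.17, limma adjusted p 0.00381). The submerged libraries lay above all controls in each of these 3 genes. L18a OS05G0564800, which rose in TOTAL, also rose here (0.57, SE 0.17, limma adjusted p 0.0106), a call lost without control II replicate 3.

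The change in 35S TRAP differed from that in TOTAL for most members. An interaction term in a limma fit over both pools was positive and passed for 110 members and negative for 0 (background 10.2% and 2.66% of 27344 genes). A positive term means that the change in the ribosome-bound pool lay above that in TOTAL, by a smaller fall or by a rise. The median difference of the changes was 1.18 on the log2 scale, against 0.02 for all genes. The largest differences were those of S10 OS01G0962600 (2.31, SE 0.31), SA OS07G0616600 (2.15, SE 0.26) and L40 OS09G0568400 (2.10, SE 0.44). For the elongation factors 9 of 14 were called in this direction, and for the proliferating markers 32 of 53. The ratio of the member sum in TRAP to that in TOTAL was 0.43 ± 0.023 (SD, n = 3) in control II and 0.879 ± 0.146 under submergence. By this sum the pools came close to each other in submerged roots. The tagged RPL18 transcript in 35S TRAP went from 14480 to 28640 TPM in control II to 3047 to 4057 TPM under submergence. Its part, and that of any change in the enrichment of tagged ribosomes, was not tested.

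**Figure D4:**
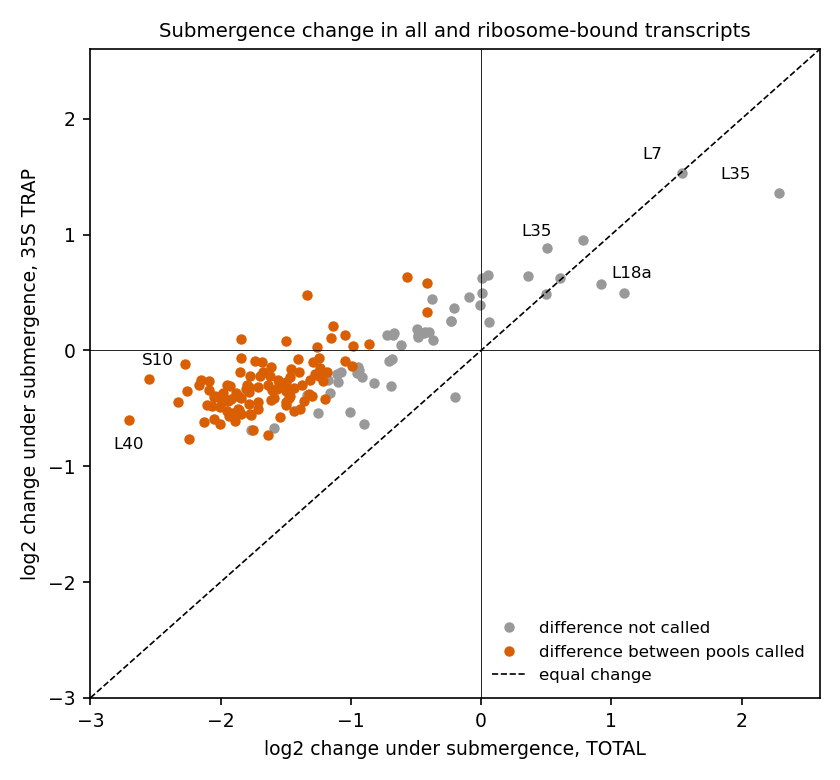
Log2 change under submergence in TOTAL (horizontal) and in 35S TRAP (vertical) for each member; the dashed line marks equal change and orange points passed the limma interaction test. The 110 members that passed lie above the line.

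Recovery from submergence, at 27 days, brought most members up again. In TOTAL, 133 members were higher and 5 lower than under submergence by limma (background 21.3% and 23.5%), with a median of 1.33, and the comparison shares its submerged libraries with the one above. L40 (OS09G0568400) stood at 104.8, 118.4 and 65.32 TPM, and S10 (OS01G0962600) at 76.01, 82.98 and 104.2 TPM. All of these lie above the submerged libraries given above, and in both genes 1 or more of them lie below the lowest control II library. L18a OS05G0564800 was at 35.92, 55.71 and 35.45 TPM, below its submerged and its control II libraries (log2 change from submergence -1.55, SE 0.17, limma adjusted p 1.04e-07). In 35S TRAP 106 members rose and 3 fell from submergence to recovery (background 15.3% and 15.5%), with P3 (OS06G0701400) the largest rise at 1.31 (SE 0.24). From submergence to recovery in TOTAL the proliferating markers went from 3470 to 3893 TPM to 5060 to 6514 TPM and the green markers from 169.9 to 262.5 TPM to 58.5 to 75.9 TPM; in 35S TRAP the green markers went from 245.1 to 471.0 TPM to 141.7 to 184.8 TPM. The tagged RPL18 transcript in 35S TRAP went from 3047 to 4057 TPM under submergence to 14640 to 112700 TPM in recovery. The parts of the markers and of this transcript in the result were not tested. The 35S TRAP count of 109 was 60 without submergence replicate 3 and 65 without recovery replicate 1.

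Under water deficit more members fell than rose in TOTAL RNA, with a median of -0.52 against 0.08 for all genes. By limma 85 fell and 4 rose (background 16.9% and 20.3% of genes), 7 of them by 2-fold or more (background 10.6% higher and 10.9% lower). With only the compared groups in the fit 57 fell and 2 rose. The small subunit gave 37 falls and 0 rises, the large subunit 43 and 4, and the stalk 5 and 0. The proliferating markers summed to 6035 to 6802 TPM in control I and 3285 to 3770 TPM under deficit, where 35 of 53 fell and 1 rose, and their part in the result was not tested. S10 (OS01G0962600) had the largest fall, from 87.47, 103.8 and 118.6 TPM to 38.07, 36.2 and 50.7 TPM (log2 change -1.29, SE 0.18, limma adjusted p 4.5e-06). L24 (OS07G0224000), which joins the subunits by a bridge, went from 224.9, 215.2 and 140.9 TPM to 113.0, 76.26 and 66.09 TPM (-1.18, SE 0.24). The groups were apart in both genes. L3 (OS11G0168200) fell by 1.10, L5 (OS01G0896700) by 0.92, L40 (OS09G0568400) by 0.83 and P0 (OS08G0130500) by 0.61, whereas L10 OS05G0169100 was at -0.20 (limma adjusted p 0.345) and P3 (OS06G0701400) at -0.44 (0.0838).

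The L18a gene OS05G0564800 rose under deficit as well, from 99.13, 76.86 and 79.04 TPM to 178.8, 190.7 and 132.7 TPM in TOTAL (log2 change 0.96, SE 0.17, limma adjusted p 9.39e-05). The groups did not overlap. The other called rises in TOTAL were small: L7a OS01G0924800 at 0.69 (lost without control I replicate 3 or deficit replicate 1 or 2), L18a OS01G0242900 at 0.59 (lost without replicate 3 of either group) and the L15 gene OS06G0308200, which stayed below 5 TPM. OS05G0564800 also rose in RSS1 TRAP, from 48.63, 56.19 and 51.84 TPM to 83.89, 98.6 and 93.08 TPM (0.80, limma adjusted p 0.0369), in QHB TRAP, from 25.13, 45.93 and 26.17 TPM to 94.22, 59.55 and 60.05 TPM (1.13, limma adjusted p 0.0174), and in CASP TRAP, from 12.86, 27.67 and 33.48 TPM to 131.2, 156.6 and 39.93 TPM (1.99, limma adjusted p 0.0344). These calls rested on single libraries: the RSS1 call was lost without any 1 of its 6 libraries, the QHB call without control I replicate 1 or 3 or deficit replicate 1, and the CASP call without control I replicate 2 or 3 or deficit replicate 1 or 2. In 35S TRAP the same gene was at 66.17, 77.27 and 82.22 TPM in control I and 96.06, 115.3 and 83.32 TPM under deficit, and in LSI1 TRAP at 97.65, 118.8 and 102.1 TPM and 96.45, 110.7 and 77.29 TPM; neither passed.

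In the ribosome-bound pools the deficit calls were counted for each line. RSS1 TRAP had 20 falls and 2 rises (background 9.24% and 7.94%), with S10 OS01G0962600 (log2 change -1.53, SE 0.30) and SA OS07G0616600 (-1.10, SE 0.21) the largest falls, and the count of 22 became 8 without control I replicate 2, 11 without control I replicate 3, 12 without deficit replicate 1 and 4 without deficit replicate 3, and 13 without a mean trend in the fit. QHB TRAP had 6 falls and 1 rise (background 8.7% and 6.56%), again led by S10 OS01G0962600 (-1.24, SE 0.20), and its count of 7 became 3 without control I replicate 3, 21 without deficit replicate 1 and 4 without deficit replicate 2 or replicate 3, and 3 with only the compared groups in the fit. LSI1 TRAP had 23 rises and 3 falls (background 10.4% and 13.6%), and its median member changed by 0.26. S8 OS02G0489400 was at 105.4, 78.08 and 90.02 TPM in LSI1 control I and at 165.3, 174.5 and 149.4 TPM under deficit, with no overlap (0.84, SE 0.15, limma adjusted p 0.00065). The LSI1 count of 26 became 14 without control I replicate 2, 13 without control I replicate 3, and 16 without deficit replicate 1 or replicate 2, and 12 with only the compared groups in the fit. From control I to deficit the proliferating markers went from 6747 to 8567 TPM to 4426 to 5043 TPM in QHB and from 3510 to 4328 TPM to 2687 to 3323 TPM in LSI1, in both without overlap, and from 6726 to 8897 TPM to 4482 to 7554 TPM in RSS1, with overlap. From control I to deficit the tagged RPL18 transcript went from 16500 to 17650 TPM to 3360 to 8873 TPM in RSS1. In LSI1 it went from 12870 to 117600 TPM to 1145 to 12120 TPM. In QHB it went from 2575 to 5447 TPM to 1975 to 3529 TPM, with overlap. The parts of the markers and of this transcript in these counts were not tested. Differences between these lines in their deficit response were not tested.

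The other pools held few calls. In 35S TRAP 1 member fell and 0 rose (background 13.4% and 10.8%), namely L3 OS11G0168200 from 169.2, 194.4 and 178.2 TPM to 149.1, 118.6 and 87.97 TPM (-0.63, SE 0.22, limma adjusted p 0.0365), and that call was lost without any control I replicate or deficit replicate 2 or 3; without deficit replicate 1 the count was 6 and without control I replicate 1 it was 2. CMZ TRAP had 1 fall, S4 OS02G0105900, from 1273, 910.9 and 787.2 TPM to 456.5, 613.7 and 448.5 TPM (background 4.5% lower and 3.45% higher; limma adjusted p 0.0494), a call lost without any 1 of its libraries. CASP TRAP had the 1 rise above (background 2.16% higher and 2.1% lower), and no count remained without the libraries named there. SCR TRAP had 0 calls by limma (background 6.87% in either direction), with 8 members at an unadjusted p under 0.05.

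The deficit change in 35S TRAP differed from that in TOTAL for 20 members, all toward a higher ribosome-bound level (limma interaction; background 3.36% higher and 2.45% lower), with a median difference of 0.55 on the log2 scale against -0.16 for all genes. With the replicate number as a block, the count was 84 (82 higher, 2 lower). It was 6 with only the compared groups in the fit and 33 with genes above 20000 TPM removed. It was 11 without TOTAL control I replicate 1, 10 without TOTAL deficit replicate 2, 11 without 35S TRAP control I replicate 3 and 7 without 35S TRAP deficit replicate 1. L11 OS06G0550000 went from 149.5, 117.0 and 120.5 TPM to 71.07, 57.19 and 58.57 TPM in TOTAL, and from 31.4, 33.06 and 28.85 TPM to 56.42, 49.35 and 39.71 TPM in 35S TRAP. The libraries of the 2 conditions were apart in both pools, with opposite order (difference 1.65, SE 0.31, limma adjusted p 0.00036). L24 OS07G0224000 gave 1.68 (SE 0.37) and SA OS07G0616600 1.29 (SE 0.26). Of the proliferating markers, 16 of 53 were called in the same direction and 0 in the other, and their part in the result was not tested. The TRAP to TOTAL ratio of the member sum was 0.497 ± 0.028 in control I and 0.708 ± 0.049 under deficit (SD, n = 3 each). The tagged RPL18 transcript in 35S TRAP went from 16040 to 113600 TPM in control I to 1301 to 1978 TPM under deficit. Its part, and that of any change in the enrichment of tagged ribosomes, was not tested.

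In recovery from deficit, compared with deficit, TOTAL RNA had 43 rises and 5 falls by limma (background 17.9% and 13.4%) and 35S TRAP 0 rises and 11 falls (12.5% and 11.4%). S10 OS01G0962600 was at 100.5, 79.42 and 92.2 TPM in recovering TOTAL roots, above all deficit libraries, and L18a OS05G0564800 was at 106.7, 81.8 and 78.5 TPM, below all of them. SA OS07G0616600 rose in TOTAL (log2 change 0.78, SE 0.16, limma adjusted p 0.000416) and fell in 35S TRAP (-0.97, SE 0.21, limma adjusted p 0.00143); the difference of these 2 changes was not tested. From deficit to recovery the proliferating markers went from 3285 to 3770 TPM to 5595 to 7179 TPM in TOTAL and from 2243 to 3176 TPM to 3649 to 4300 TPM in 35S TRAP. The tagged RPL18 transcript in 35S TRAP went from 1301 to 1978 TPM to 14790 to 115700 TPM. The parts of the markers and of this transcript in the result were not tested. The TOTAL count of 48 was 15 with only the compared groups in the fit, 30 without deficit replicate 3 and 17 without recovery replicate 1. The 35S TRAP count of 11 was 2 without deficit replicate 1, 4 without deficit replicate 2, 5 without recovery replicate 2 and 3 without recovery replicate 3.

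Waterlogging called 0 members by limma in TOTAL (background 0.955% in either direction), in 35S TRAP (0.182%) and in RSS1 TRAP (0.515%), with 4, 13 and 0 members at an unadjusted p under 0.05. In TOTAL 1 member was called lower with libraries centred on their median and with genes above 20000 TPM removed. In 35S TRAP 152 of 160 members had a negative estimate and the median was -0.31, against 0.00 for all genes. Control II against control I leaned the same way in 35S TRAP, with 149 of 160 negative and a median of -0.23 (all genes -0.04). Negative estimates were not counted over all genes, so these counts have no background. The member sum under waterlogging was 15119 to 23148 TPM against 20943 to 23622 TPM in control I, which overlap. The pool difference under waterlogging called 0 members (background 0.0841%), with 2 at an unadjusted p under 0.05.

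Field roots, at 49 days, differed from greenhouse control I in few members. TOTAL had 7 rises and 1 fall (background 11.2% and 3.38%) and 35S TRAP 20 rises and 1 fall (7.08% and 7.52%). The split in TOTAL turned to 3 rises and 15 falls with libraries centred on their median and with genes above 20000 TPM removed; the median gene stood at 0.18 in TOTAL. With only the compared groups in the fit, 1 member was called in each pool. The TOTAL count of 8 was 4 without control I replicate 1 and 5 without control I replicate 2 or field replicate 1. The 35S TRAP count of 21 was 11 without control I replicate 2, 5 without control I replicate 3 and 6 without field replicate 2.

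P0 genes were among the field rises in both pools. OS11G0135400 was at 25.76, 22.0 and 22.59 TPM in TOTAL control I and at 52.72, 48.26 and 44.22 TPM in the field, and in 35S TRAP at 28.55, 23.42 and 23.45 TPM and at 52, 63.22 and 46.39 TPM. The field libraries lay above all control libraries in both pools, with log2 changes of 1.01 (SE 0.19, limma adjusted p 0.000903) and 1.06 (SE 0.20, limma adjusted p 0.000989). OS12G0133050 rose by 0.85 and 0.97. The abundant P0 gene OS08G0130500 rose in 35S TRAP by 0.75 (limma adjusted p 0.0273, lost without control I replicate 2 or 3 or field replicate 1), and stood at 0.52 in TOTAL (0.0659). The fall in TOTAL was that of S11 OS08G0207000, from 100.8, 91.4 and 98.97 TPM to 44.28, 52.47 and 54.17 TPM.

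The ribosome-bound pool of the 35S line held less ribosomal protein mRNA than TOTAL. In control I 135 members were lower and 1 higher in TRAP by limma (background 15.4% and 27.7% of 27344 genes), 86 of them by 2-fold or more (background 12.9% higher and 9.3% lower), with a median of -1.04 against 0.24 for all genes. In control II 146 were lower and 1 higher (background 19.9% and 15%), with a median of -1.22. The pools differ in how the RNA was made, and the proliferating markers gave 37 of 53 lower and 0 higher in control I (median -1.15). Elongation factors gave 3 higher and 2 lower in control I, and organellar ribosomal proteins 12 higher and 15 lower. The parts of these in the result were not tested.

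L39 and S29, among the shortest proteins of the ribosome, differed most. L39 OS02G0797200 was at 333.3, 346.1 and 279.9 TPM in TOTAL control I and at 51.03, 62.62 and 53.22 TPM in 35S TRAP (log2 difference -2.50, SE 0.20, limma adjusted p 2.05e-13). The other L39 genes, OS02G0796900 and OS06G0181566, gave -2.28 and -2.18. S29 OS12G0508300 was at 560.1, 487.4 and 541.0 TPM in TOTAL and 117.1, 114.7 and 103.3 TPM in TRAP (-2.23, SE 0.18). In each of these genes the pools were fully apart, and the same 4 genes stood among the 5 largest in control II.

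In TRAP libraries of every other line except LSI1, more members were called higher than lower against 35S TRAP in control I. How far the CMZ, SCR and CASP libraries were enriched for ribosome-bound RNA is unknown: their tagged RPL18 transcript was at 263.3 to 1898 TPM, against 816.4 to 1095 TPM in TOTAL and 16040 to 113600 TPM in 35S TRAP. By limma, RSS1 had 51 higher and 0 lower (background 11% and 5.13%), CMZ 86 and 0 (18.6% and 11.2%), SCR 76 and 1 (20.7% and 11.9%), CASP 54 and 3 (20% and 11.4%), QHB 68 and 1 (16.8% and 10.6%) and LSI1 0 and 2 (8.61% and 10.6%). These comparisons share the 35S TRAP control libraries. With libraries centred on their median the counts of higher and lower members were 20 and 0 in RSS1, 52 and 1 in CMZ, 44 and 5 in SCR, 27 and 6 in CASP, 25 and 1 in QHB and 0 and 4 in LSI1. With only the compared groups in the fit, RSS1 had 90 calls, CASP 29 and LSI1 40 (5 higher, 35 lower), and with genes above 20000 TPM removed RSS1 had 24, CASP 35, QHB 33 and LSI1 8. Of the proliferating markers 29 of 53 were higher and 0 lower in RSS1 and 31 and 1 in CMZ. In LSI1 they gave 3 and 0, where the members gave 0 and 2. Mean marker sums were 7676 TPM in RSS1, 7748 in QHB, 6117 in CASP and 6114 in CMZ. They were 5267 TPM in SCR, 4038 in LSI1 and 3518 in 35S TRAP. Mean member sums, in the same order of lines, were 35887, 36631, 35398.5, 40788, 39346, 17920 and 22463 TPM. The part of the markers in the result was not tested. With the replicate number as a block, RSS1 had 86 calls.

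Single libraries carried weight in these counts. The RSS1 count of 51 was 22 without RSS1 replicate 2, 26 without RSS1 replicate 3, and 32, 29 and 19 without 35S TRAP replicates 1, 2 and 3. The QHB count of 69 was 37 and 36 without QHB replicates 2 and 3, and 45 and 34 without 35S TRAP replicates 2 and 3. The CASP count of 57 was 29 without 35S TRAP replicate 3, and the LSI1 count of 2 was 1 without LSI1 replicate 2 or 3 or 35S TRAP replicate 2. In CASP the member sums ran from 24985 to 49199 TPM, and 1 control I library held 2256 TPM of green tissue genes. Without libraries above 500 TPM of these genes the counts were 87 in CMZ and 39 in CASP.

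**Figure D5:**
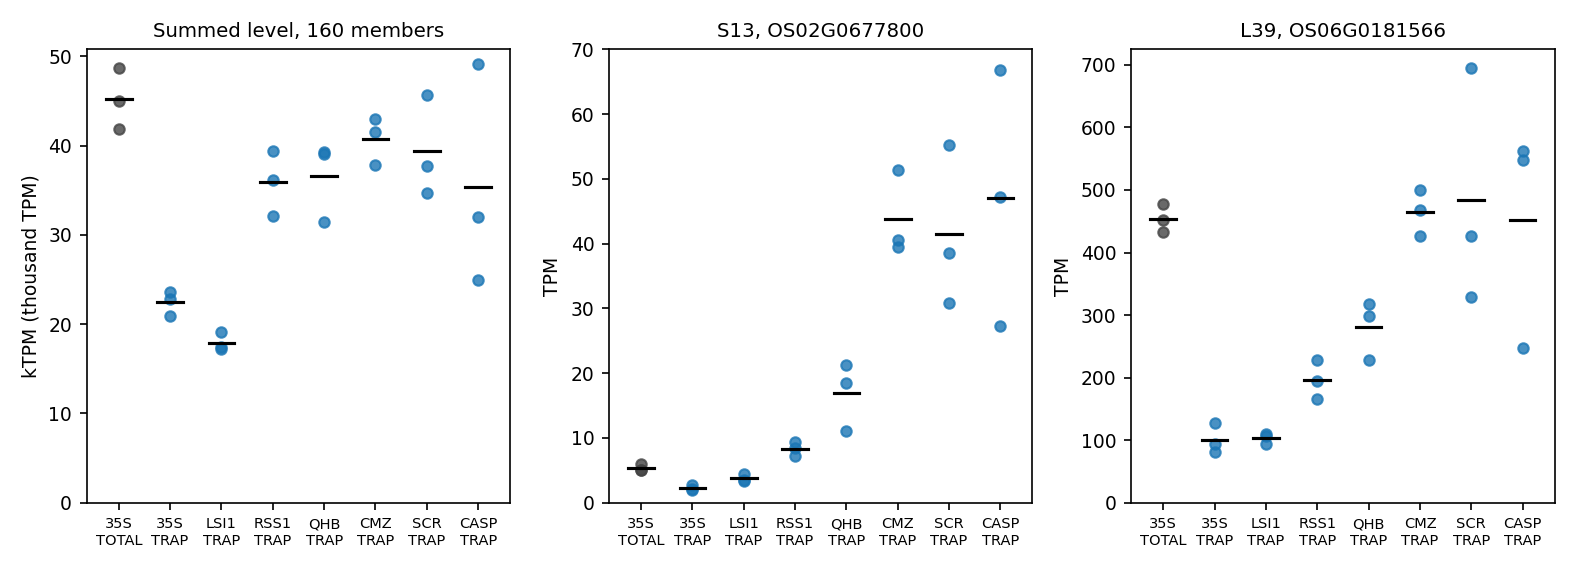
Summed level of the 160 members (left, kTPM) and level of S13 OS02G0677800 (middle, TPM) and L39 OS06G0181566 (right, TPM) in control I for TOTAL and for TRAP of each line, with points for libraries and bars for means. In the sum, TRAP of 35S and LSI1 lie lowest, at means of 22463 and 17920 TPM, and CASP has the widest spread.

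The S13 gene OS02G0677800 had the largest difference between lines. It stood at 2.727, 2.065 and 1.996 TPM in 35S TRAP and 5.996, 5.112 and 5.049 TPM in TOTAL, against 39.56, 40.6 and 51.43 TPM in CMZ, 55.25, 30.87 and 38.49 TPM in SCR and 47.27, 27.31 and 66.78 TPM in CASP. The values of QHB (11.13, 18.47 and 21.34 TPM) and RSS1 (7.244, 9.331 and 8.439 TPM) lay between, and LSI1 (3.296, 4.487 and 3.482 TPM) lay close to 35S TRAP. The 3 highest lines overlapped with each other and with none of the rest. Against 35S TRAP the log2 difference was 3.78 in CMZ (SE 0.33, limma adjusted p 6.12e-08), 3.67 in SCR and 3.801 in CASP.

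Of the members of largest difference, S10 and L11 are given for RSS1 and QHB. S10 OS01G0962600 was at 38.67, 25.74 and 22.97 TPM in 35S TRAP, 126.5, 180.3 and 171.9 TPM in RSS1, 157.2, 99.85 and 146.5 TPM in QHB and 24.94, 19.55 and 13.39 TPM in LSI1. RSS1 and QHB overlapped each other and lay above 35S TRAP and LSI1. The log2 differences from 35S TRAP were 2.43 (SE 0.35) in RSS1 and 2.18 (SE 0.35) in QHB. L11 OS06G0550000 was at 101.3, 120.7 and 114.1 TPM in RSS1, 66.34, 105.5 and 116.5 TPM in QHB, 31.4, 33.06 and 28.85 TPM in 35S TRAP and 7.718, 7.243 and 6.507 TPM in LSI1, which was the lowest line without overlap (log2 difference from 35S TRAP -1.98, SE 0.40, limma adjusted p 0.000982).

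Other members stood in CMZ, SCR and CASP at the level of TOTAL. L39 OS06G0181566 was at 427.0, 500.2 and 467.2 TPM in CMZ, 328.8, 694.3 and 427.2 TPM in SCR and 547.4, 561.8 and 248.0 TPM in CASP, against 432.1, 477.6 and 452.5 TPM in TOTAL and 81.01, 128.0 and 94.36 TPM in 35S TRAP. L17 OS10G0466700 was at 577.7, 523.1 and 640.0 TPM in CMZ, 558.4, 430.0 and 521.4 TPM in TOTAL and 148.8, 135.9 and 139.1 TPM in 35S TRAP. These 3 lines overlapped with TOTAL and were apart from 35S TRAP. They are also the lines whose tagged RPL18 transcript lay in or near the TOTAL range, and the part of that in these values was not tested.

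Within each family the copy of highest mean level was compared with the copy of lowest mean level. In 34 of the 49 families with more than 1 copy, the first stayed above the second in all 62 group means. Copies of intermediate level, such as those of L18a that exchanged their order under submergence, were not part of this count. In the other 15 families the order of these 2 copies switched in at least 1 group. The L22 copies OS07G0674200 and OS03G0343500, at means of 238.1 and 226.1 TPM, switched in 25 groups. The L18 copies OS05G0155100 and OS07G0674700 switched in 16 groups, and the L30 copies OS01G0276000 and OS05G0490100 also in 16. The L31 copies OS08G0505300 and OS06G0319700 switched in 10, among them the field groups of RSS1, QHB and 35S. The L18 gene OS07G0674700 is a copy of the tagged gene: over 187 libraries its level and that of the RPL18 transcript had a Spearman rho of 0.759, as a description, since libraries share lines and normalization. Reads of the 2 may be shared, and its values are uncertain, as is the L18 switch counted among the 15 families. The pairs OS01G0834500 and OS01G0834600 (S23) and OS07G0523100 and OS07G0523150 (L44) each share 1 locus of an older annotation.

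Upstream chromatin of the members was open, and few member regions were called. Counts were deposited for all 160, and 157 passed the filter on low counts. In the 35S line the median member region had 34.4 to 38.3 CPM (its count scaled to library size) in control II libraries and 34.9 to 41.9 under submergence, against 19.0 to 19.1 and 17 to 18.4 for the median of all regions. By edgeR's quasi-likelihood test 1 member passed under submergence (background 6.7% in either direction) and 12 had an unadjusted p under 0.05, all higher. It was the rare L35 gene OS06G0732000, at 25.9 ± 4.9 against 16.3 ± 1.0 CPM (SD, n = 3; log2 change 0.65, edgeR adjusted p 0.0481). The call was lost without control II replicate 2 or 3 or submergence replicate 1 or 2. DESeq2 called 3 members under submergence and edgeR with only the compared groups in the fit called 6, all higher. Under deficit edgeR called 0 of 157 (background 0.797%), with 17 at an unadjusted p under 0.05, and DESeq2 called 3 lower. The estimates leaned in opposite directions. Under submergence 119 of 157 were positive, with a median log2 change of 0.15 against 0.01 for all regions. Under deficit 119 were negative, with a median of -0.15 against -0.01. The counts by sign, by unadjusted p and by the alternative fits are given without a share over all regions. They therefore have no background.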

How the data were processed

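Rice root RNA was measured as TPM and upstream chromatin as read counts per gene region. Per the file headers, the authors kept genes above a CPM minimum, quantile-normalized reads with limma voom and computed TPM from them; such values carry no read depth, which is unknown here, and quantile normalization gives libraries nearly the same distribution. TPM per library summed to 999953 to 1000051. The ATAC counts were deposited raw, with 812498 to 17113727 per library (median 3099295); the precision of a region is limited by its counts. Bowtie2, TopHat2, HOMER, limma and the build IRGSP-1.0 are named per the submitters' processing notes, and no source used here gives their versions or settings, the use of strand or any shift for the transposase cut. No reference sequence was used here, and the reference gene table matched none of the identifiers.

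Values were taken to log2(TPM + 1) and fitted in limma 3.58.1 under R 4.3.3 (eBayes, mean trend). Genes entered a fit with 1 TPM or more in 3 or more of its libraries. A fold change is on the log2(TPM + 1) scale, which understates changes of low genes. All environments of a line and pool entered 1 fit, and pools or lines were joined for their comparison. edgeR 4.0.16 quasi-likelihood tests were run on the ATAC counts, with DESeq2 1.42.0 as an alternative. A call is a Benjamini-Hochberg adjusted p under 0.05 over all features tested. The limma and edgeR steps were also run on simulated data in separate code, for edgeR with submergence and control II only. The outcome is not given here. Named members were those called, with a mean of at least 5 TPM in the higher group, up to the 10 largest rises and 10 largest falls (5 in recovery, line, pool and chromatin comparisons), together with fixed members of known role (such as L3, L5, L10, L11, L40 and P0 to P3), the 5 of highest mean and family copies whose order differed; family partners and other groups of a named member were added after its values were seen. The members and lists were chosen with earlier results of these data known.

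Replicate numbers were taken to pair libraries where every same-numbered pair deviated together (correlation above 0.1): deficit in RSS1, waterlogging, submergence and its recovery in TOTAL and 35S TRAP, the TRAP against TOTAL comparisons and the RSS1, CMZ, SCR and QHB lines (lowest correlation 0.111). Plate libraries entered no comparison, because some are labelled as uploaded before, and waterlogging recovery is given only as summed levels. Nothing states that replicates outside the greenhouse came from separate plants, so p-values there measure the spread between libraries. Alternatives were another pseudocount, no filter, fits of the compared groups alone, median-centred libraries, removal of genes above 20000 TPM (26 genes), a replicate block, no mean trend and leaving out each library; leaving out libraries rich in green tissue genes was added after seeing the data.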

Additional observations from a re-analysis of the deposited data

Results flagged for a closer look

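The results here were picked because the change under a stress differed between ribosome-bound and TOTAL RNA of the 35S line, by the limma interaction test given in the report. Under deficit the difference passed for 20 members, and the largest values on the log2 scale were 1.68 for L24 OS07G0224000, 1.65 for L11 OS06G0550000, 1.43 for L35a OS05G0555800, 1.31 for L34 OS09G0413500 and 1.29 for SA OS07G0616600. The L34 call was lost without 35S TRAP deficit replicate 1. Under submergence it passed for 110 members, with 2.31 for S10 OS01G0962600, 2.15 for SA OS07G0616600, 2.10 for L40 OS09G0568400, 1.95 for S5 OS01G0100700 and 1.91 for L11 OS06G0550000. Each of these 10 values is positive, meaning a higher change in the ribosome-bound pool. The tagged RPL18 transcript was lower in 35S TRAP under both stresses than in their controls, and its part in these values was not tested. In the 1 group of 4 libraries, CMZ on plates, no member sum stood apart by Dixon's criterion.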

How the results depend on the processing

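Of 462 recomputed counts of called members, 349 stayed within 1.5 times the reported count and 113 did not; 11 of 35 comparisons stayed within it under every alternative run. For 198 results of named members, 2283 of 2603 recomputed values kept their direction and call, 320 kept the direction and lost the call, and 0 changed direction. The cause of the moves below was not tested, beyond that fits of the compared groups alone hold fewer libraries.

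With only the compared groups in the fit, the counts were 59 for deficit in TOTAL, 0 in 35S TRAP, 0 in CASP, 1 in SCR, 3 in QHB and 12 in LSI1; 15 for deficit recovery in TOTAL; 1 for the field in TOTAL and 1 in 35S TRAP; 6 for the pool difference under deficit; 90 for the RSS1 line, 29 for CASP and 40 for LSI1; and 6 for chromatin under submergence. With median-centred libraries they were 0 for deficit in 35S TRAP, 1 for waterlogging in TOTAL, 18 for the field in TOTAL, and 20, 53, 49, 33, 4 and 26 for the RSS1, CMZ, SCR, CASP, LSI1 and QHB lines. With genes above 20000 TPM removed they were 2 for deficit in 35S TRAP, 0 in CMZ, 1 for waterlogging in TOTAL, 36 for submergence in 35S TRAP, 18 for the field in TOTAL, 33 for the pool difference under deficit, and 24, 35, 8 and 33 for the RSS1, CASP, LSI1 and QHB lines.

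Without a mean trend the deficit counts were 13 in RSS1, 0 in CMZ and 0 in CASP, and without a filter 0 in CMZ. With green libraries left out, an alternative chosen after seeing the data, deficit gave 2 in CMZ and 1 in SCR. DESeq2 called 3 regions under deficit and 3 under submergence. With the replicate block, in comparisons that the numbers pair, the count was 84 for the pool difference under deficit and 86 for the RSS1 line, and it moved no other such count by over 1.5 times. Where samples share only a number, the block gave 2 for deficit in 35S TRAP, 21 for deficit recovery in 35S TRAP, 16 for the field in TOTAL, 87 for the CASP line, 9 for the LSI1 line and 3 for chromatin under submergence.

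Leaving out each library in turn gave 0 to 6 for deficit in 35S TRAP, 4 to 19 in RSS1, 0 to 1 in CMZ and CASP, 3 to 21 in QHB and 13 to 33 in LSI1; 8 to 30 for submergence in 35S TRAP; 17 to 50 and 2 to 14 for deficit recovery in TOTAL and 35S TRAP; 60 to 105 for submergence recovery in 35S TRAP; 4 to 11 and 5 to 25 for the field; 7 to 22 for the pool difference under deficit; 19 to 39, 29 to 83, 1 to 3 and 34 to 64 for the RSS1, CASP, LSI1 and QHB lines; and 0 to 1 for chromatin under submergence. It gave 133 to 143 for submergence in TOTAL and 123 to 135 in RSS1. The search for promoter motifs was not run. TPM hold no counts, so no limit of detection could be set for low copies.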
